A study of Mus musculus with 56 samples.

Results

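The immediate early genes and NR4A receptors were followed as 10 genes of visceral adipose tissue (VAT), namely Fos, Fosb, Jun, Junb, Egr1, Ier2, Dusp1, Nr4a1, Nr4a2 and Nr4a3. They were taken by symbol from the deposited VAT table of 25939 genes, and all 10 were found in all 56 libraries. Each library held RNA of 1 female C57BL/6J mouse with no engineered allele named in the labels, aged 9 weeks and kept under 12 h of light and 12 h of darkness. For 7 days the mice had received normal chow in the daytime only (DRF, daytime-restricted feeding) or, as the reference, at night only (NRF). Each regimen was sampled at 7 time points, from ZT0 (lights on) to ZT24 in steps of 4 h, with 4 mice in each of the 14 groups. ZT0 and ZT24 are the same hour of the day and are listed as separate groups, whose mice were taken to be distinct because the labels give no animal numbers. Levels are given as CPM (reads of a gene scaled to library size), recovered from the deposited values, and differences are on the scale log2(CPM + 1), which understates changes of low genes.

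Immediate early genes are transcribed within minutes of a stimulus such as a growth factor, a hormone, stretch or stress, without new protein synthesis, and their RNAs are short-lived. Fos, Fosb, Jun and Junb code for subunits of the AP-1 transcription factor, Egr1 for a zinc finger transcription factor, Dusp1 for a phosphatase that inactivates MAP kinases, and Ier2 for a small early response protein of the nucleus. Nr4a1, Nr4a2 and Nr4a3 code for orphan nuclear receptors whose activity is set mainly by how much of them is made. In adipose tissue, NR4A receptors are known to be induced by adrenergic signalling through cyclic AMP, and several of these genes also respond to handling and dissection of a tissue.

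The promoters are shown because cyclic AMP is a known inducer of these genes, and the matches were not tested against the levels that follow. The set of RefSeq promoters used here (build GRCm38.p6) held 8 of the 10 members. It held no entry for Egr1 and Ier2, so their promoters were not searched. The 250 bases before the start were searched on both strands for the core of the cyclic AMP response element, TGACG. It was present in 7 of the 8 promoters, against 17.8% of all 32851 promoters in the same window. The 3 NR4A promoters held 4 cores each, and 4 or more were found in 0.137% of all promoters. Dusp1 held 3, of which a pair overlapped in 1 full element (TGACGTCA, in 1.55% of promoters), Fos held 2, and Fosb and Junb held 1. Jun held none in this window. The sequences below run 5′ to 3′ on the strand of the gene and end at the base before the start, with each core on either strand in capitals. They lie at chr15:101266596-101266845 on the plus strand for Nr4a1, chr2:57124004-57124253 on the minus strand for Nr4a2, chr17:26508473-26508722 on the minus strand for Dusp1, chr12:85473640-85473889 on the plus strand for Fos, chr8:84978749-84978998 on the minus strand for Junb and chr4:95052223-95052472 on the minus strand for Jun.
Nr4a1: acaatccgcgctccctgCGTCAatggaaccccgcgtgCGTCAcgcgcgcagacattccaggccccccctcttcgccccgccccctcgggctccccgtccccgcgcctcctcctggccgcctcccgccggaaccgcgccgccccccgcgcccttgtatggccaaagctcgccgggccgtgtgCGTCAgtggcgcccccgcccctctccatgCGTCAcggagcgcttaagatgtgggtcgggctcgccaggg
Nr4a2: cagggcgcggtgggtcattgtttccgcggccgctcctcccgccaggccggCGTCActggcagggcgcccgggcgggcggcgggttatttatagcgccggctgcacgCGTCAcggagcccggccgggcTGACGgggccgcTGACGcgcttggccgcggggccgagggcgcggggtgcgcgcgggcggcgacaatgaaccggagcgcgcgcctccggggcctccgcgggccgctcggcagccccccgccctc
Dusp1: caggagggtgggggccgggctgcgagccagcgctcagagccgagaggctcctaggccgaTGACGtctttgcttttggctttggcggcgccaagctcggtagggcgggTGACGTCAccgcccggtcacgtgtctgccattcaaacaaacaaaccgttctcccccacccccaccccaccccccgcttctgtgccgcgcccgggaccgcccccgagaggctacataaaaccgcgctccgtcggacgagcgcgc
Fos: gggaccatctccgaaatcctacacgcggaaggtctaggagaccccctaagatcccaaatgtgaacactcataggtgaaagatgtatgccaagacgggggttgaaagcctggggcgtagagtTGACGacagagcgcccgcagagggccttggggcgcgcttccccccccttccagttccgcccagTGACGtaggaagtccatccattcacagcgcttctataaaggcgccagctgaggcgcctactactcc
Junb: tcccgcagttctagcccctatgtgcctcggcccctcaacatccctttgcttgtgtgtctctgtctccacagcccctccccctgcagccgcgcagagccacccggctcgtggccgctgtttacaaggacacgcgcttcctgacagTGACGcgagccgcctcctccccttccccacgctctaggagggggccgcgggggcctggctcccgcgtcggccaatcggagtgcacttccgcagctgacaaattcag
Jun: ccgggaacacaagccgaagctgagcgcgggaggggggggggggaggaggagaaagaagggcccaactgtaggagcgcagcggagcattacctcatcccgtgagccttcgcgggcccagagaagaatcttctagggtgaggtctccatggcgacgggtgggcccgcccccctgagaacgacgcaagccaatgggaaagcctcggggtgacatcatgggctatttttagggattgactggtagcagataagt
The windows of Nr4a1 and Dusp1 lie inside the longer gene spans of the GENCODE annotation, which also counts transcripts that start further upstream. The EGR site GCGNGGGCG was matched in 3 promoters, those of Fosb, Nr4a1 and Nr4a2, against 4.70% of all promoters. The AP-1 site TGANTCA (6.75% of all promoters), the NR4A monomer site AAAGGTCA (1.34%) and the CArG box of the serum response factor (1.47%) were matched in 0 of the 8. A match describes letters in this window and is not evidence of binding.

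Recovered reads ranged from 31.4 to 41.4 M per library. The members were counted with 15 reads (Fosb, in 1 NRF mouse at ZT12) to 4358 reads (Dusp1) in a single library. The tissue label was checked against 8 adipocyte genes, all of which had reads in all libraries and whose summed level ran from 10695 to 36688 CPM. In bulk tissue, fewer cells of a type and less RNA per cell cannot be told apart. On the second principal component of expressed genes (15.7% of the variance), DRF ZT8 replicate 1 scored 74.4 and DRF ZT0 replicate 4 scored 66.4, and the other libraries scored 12.3 at most. In DRF ZT0 replicate 4, 7 epithelial markers of uterus and oviduct summed to 932 CPM, against 17.9 to 30.6 CPM in the other DRF ZT0 mice, and 5 smooth muscle markers to 909 CPM, against 184 to 365 CPM. DRF ZT8 replicate 1 had 446 CPM of the uterus and oviduct markers (37.4 to 47.0 CPM in the other DRF ZT8 mice), 1003 CPM of the smooth muscle markers (242 to 296 CPM) and the lowest adipocyte sum of all libraries. In NRF ZT24 replicate 4, the 4 liver markers measured, of 5 listed, summed to 1539 CPM, against 13.6 to 75.2 CPM in the other 55 libraries. That mouse had the highest Fos (14.1 CPM) and Junb (19.1 CPM) of its group. The limma comparisons and cosine fits were repeated without it, and the same members were called in each.

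The members differed widely in level. Per kilobase of exon, mean CPM over the 56 mice was 20.9 ± 7.67 (SD) for Dusp1, 17.3 ± 4.74 for Jun, 12.4 ± 3.42 for Ier2, 7.34 ± 3.93 for Junb and 6.07 ± 4.49 for Egr1. It was 3.31 ± 2.72 for Nr4a1, 3.15 ± 2.12 for Fos, 1.21 ± 0.272 for Nr4a2, 0.551 ± 0.449 for Nr4a3 and 0.433 ± 0.230 for Fosb. In this order, the gap between neighbours exceeded the SD of both genes for Jun and Ier2, Ier2 and Junb, and Nr4a2 and Nr4a3, and the other neighbours did not differ beyond their spread. The Dusp1 length (2697 bases) came from the deposited values and the other lengths from the annotation.

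**Figure D1:**
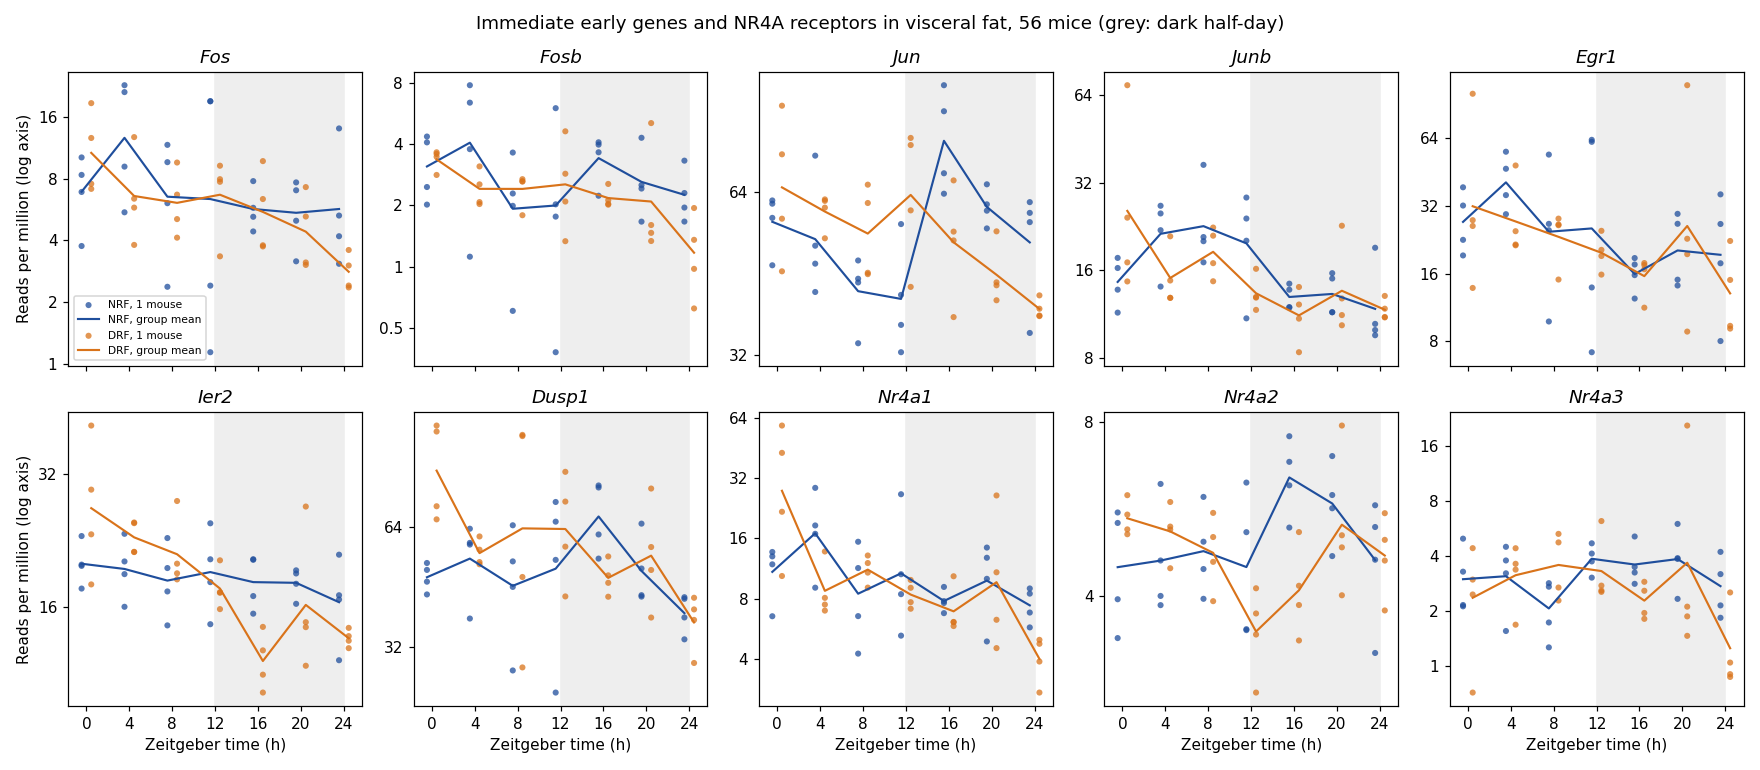
Level of each member in CPM (log axis) against zeitgeber time in h, NRF in blue and DRF in orange. Points are single mice and lines join the back-transformed means of log2(CPM + 1) of 4 mice. Jun and Nr4a2 have their highest group mean at NRF ZT16, Junb, Ier2, Dusp1 and Nr4a1 at DRF ZT0, and Fos, Fosb and Egr1 at NRF ZT4.

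The first comparison asked whether inverting the feeding time moved the level of these genes over the whole day. None of the 10 members differed in mean level between DRF and NRF (limma, 0 calls at an adjusted p under 0.05 and 0 at an unadjusted p under 0.05, where 32.7% of all genes lay), while 22.2% of all 25936 genes tested were called. The differences ran from -0.20 ± 0.19 (SE) for Fos to 0.18 ± 0.11 for Dusp1. Of the 10, 9 were lower and 1 was higher under DRF, with a median of -0.09 beside -0.00027 over all genes. The signs of Jun and Nr4a1 turned without the ZT24 libraries (from -0.0107 to 0.0540 and from -0.0704 to 0.0430), which left 7 members lower, and that of Jun turned without replicate 3 of every group (0.0364). Leaving out replicate 1 of every group gave 1 call, Fosb at -0.38 (limma adjusted p = 0.0339). No other member was called in mean level under any of the 11 alternatives.

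The next question was whether the level of a member varied with the time of day. Under NRF, Jun and Junb did (limma F test, 2 of 10 members), and 27.6% of all genes were called. Jun (chr4:95049034-95052222, minus strand) was lowest at the end of the light phase, with 32.4, 36.4, 55.9 and 41.4 CPM at ZT12. It was highest 4 h into the dark, with 90.3, 101, 69.4 and 63.6 CPM at ZT16. Every ZT16 mouse lay above every ZT12 mouse, and the largest difference between time points was 0.95 on the log2 scale (limma adjusted p = 0.0023). Junb (chr8:84974484-84978718, minus strand) ran the other way, with 17.1, 36.8, 20.8 and 20.2 CPM at ZT8 and 10.5, 9.99, 9.59 and 19.1 CPM at ZT24. Its range was 0.89 (limma adjusted p = 0.0426), and 1 mouse at ZT24 overlapped with the ZT8 group. That mouse was replicate 4, the library with 1539 CPM of liver markers, and without it the range of Junb was 1.11 (limma adjusted p = 0.0163). The call for Junb was kept in 7 of 11 alternatives. It was lost without the ZT24 libraries (limma adjusted p = 0.113) and without replicate 1, 2 or 3 of every group (limma adjusted p = 0.0843 to 0.403), while that for Jun was lost without replicate 2 alone (limma adjusted p = 0.0845).

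Under DRF, 5 of the 10 members varied over the 7 time points (limma F test, against 28.2% of all genes), namely Nr4a1, Ier2, Junb, Jun and Dusp1. Nr4a1 (chr15:101254269-101274795, plus strand) had the widest range of all members, 2.52 on the log2 scale (limma adjusted p = 0.00039), from DRF ZT0 to DRF ZT24. These are the same hour of the day, so this range is a difference between groups and not between hours. The ranges of Jun (0.73) and Dusp1 (1.24) under DRF also lay between ZT0 and ZT24. Ier2 (chr8:84661331-84662852, minus strand) had a mean of 27.95 ± 9.93 CPM (SD, n = 4) at ZT0, 23.0 ± 2.01 at ZT4 and 12.2 ± 1.82 at ZT16. Its mean was 17.0 ± 6.79 CPM at ZT20 and 13.6 ± 0.602 CPM at ZT24. As ZT24 is the same hour as ZT0, the fall from ZT0 is not a change between hours alone. At DRF ZT16 the 4 mice had 10.2, 14.4, 11.2 and 12.7 CPM, all below every DRF mouse at ZT0 and ZT4. Its range was 1.09 (limma adjusted p = 3.86e-05), and its call and that of Nr4a1 held under all 11 alternatives. Those of Jun, Dusp1 and Junb did not. That of Jun was kept in 7 of 11 and that of Dusp1 in 6. Without the ZT24 libraries both were lost (limma adjusted p = 0.221 and 0.226), as they were without replicate 2, 3 or 4 of every group (limma adjusted p = 0.147 to 0.221 for Jun and 0.126 to 0.276 for Dusp1). Dusp1 was lost on log2(deposited value + 1) as well (limma adjusted p = 0.112). In Junb, DRF ZT0 replicate 4 had 69.1 CPM beside 14.7, 17.1 and 24.3 CPM in its group. Its call was lost without the 2 libraries that stood apart (limma adjusted p = 0.212) and without replicate 1, 3 or 4 of every group (limma adjusted p = 0.0505 to 0.197). Fos, Fosb, Egr1, Nr4a2 and Nr4a3 were not called over time under either regimen.

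A 24-h rhythm was tested per regimen in the manner of MetaCycle on the deposited values. Under NRF, Junb (adjusted p = 0.0147, an exact JTK-type test combined with Lomb-Scargle) and Jun (adjusted p = 0.0334, by the same exact and Lomb-Scargle tests) passed, and 33.3% of all genes did. Under DRF, Ier2 passed (adjusted p = 0.0449, by the same exact and Lomb-Scargle tests), with 19.3% of all genes. Without the 2 libraries that stood apart, 0 members passed under DRF. The NRF calls were not all kept either, as fewer members passed on recovered log2(CPM + 1) and with some libraries left out. A fitted 24-h cosine placed the peak of Jun at ZT 19.1 ± 0.993 h (SE) under NRF and the peak of Junb at ZT 7.92 ± 0.971 h. The peak of Ier2 under DRF lay at ZT 4.78 ± 0.818 h.

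Whether the 24-h rhythm itself differed between regimens was tested directly. It differed for Jun (limma adjusted p = 0.0094) and Nr4a2 (limma adjusted p = 0.0126), 2 of 10 members beside 36.0% of all genes. The Jun amplitude was 0.33 ± 0.10 (log2, SE) under NRF and 0.17 ± 0.09 under DRF. Its fitted peak moved from ZT 19.1 to ZT 8.75 ± 2.08 h, a shift of -10.4 ± 2.30 h, although the DRF rhythm of Jun did not pass its own test (limma adjusted p = 0.367). Nr4a2 (chr2:57106830-57124003, minus strand) had near-equal amplitudes, 0.19 ± 0.07 under NRF and 0.20 ± 0.06 under DRF. Its peak lay at ZT 17.0 ± 1.27 h under NRF and at ZT 0.804 ± 1.36 h under DRF, a shift of 7.76 ± 1.85 h. Taken alone, the Nr4a2 cosine passed under DRF (limma adjusted p = 0.0407, beside 26.7% of all genes) and not under NRF (limma adjusted p = 0.0843, beside 33.7%). The DRF peak of Nr4a2 lay within 1 SE of the change from dark to light, with near-equal means at DRF ZT0 (5.46 CPM) and ZT20 (5.46 CPM). The mean at DRF ZT24, the same hour as ZT0, was lower at 4.73 CPM. At DRF ZT20, replicate 3 had 7.88 CPM beside 4.01 to 5.09 CPM. The call for Nr4a2 was lost without replicate 1 or 4, and that for Jun without replicate 1 or 2. Ier2 had a limma adjusted p of 0.0647 in this test.

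At single time points, 6 of 70 member comparisons between regimens were called. At ZT0, Nr4a1 and Dusp1 were higher under DRF, 2 of 10 members beside 10.5% of all genes called and 5.41% called higher. Nr4a1 had 10.4, 21.7, 58.7 and 42.9 CPM under DRF and 11.9, 13.7, 6.52 and 13.0 CPM under NRF. 3 of the 4 DRF mice lay above all NRF mice, and the difference was 1.27 ± 0.41 (limma adjusted p = 0.0377). Without DRF ZT0 replicate 4 and DRF ZT8 replicate 1 it was 1.07 (limma adjusted p = 0.120). Dusp1 (chr17:26505590-26562128, minus strand) had 66.9, 115, 111 and 72.1 CPM under DRF and 43.4, 46.7, 52.003 and 49.97 CPM under NRF, with no overlap. The difference was 0.87 ± 0.29 (limma adjusted p = 0.0447), and its call was kept without the 2 libraries. The calls were kept in 5 of 11 alternatives for Nr4a1 and in 6 for Dusp1. On log2(deposited value + 1) both were lost (limma adjusted p = 0.134 and 0.1496), as they were without the ZT24 libraries (limma adjusted p = 0.0536 and 0.0629). Both were also lost without replicate 2, 3 or 4 of every group, with differences of 0.70 to 1.49 for Nr4a1 and 0.74 to 0.99 for Dusp1. At ZT4, ZT8, ZT20 and ZT24 no member was called, beside 19.5%, 16.5%, 13.1% and 11.3% of all genes, and 1, 0, 1 and 1 members had an unadjusted p under 0.05 (30.6%, 27.9%, 24.3% and 24.1% of all genes). At ZT24, the same hour as ZT0, the differences had the other sign, with -0.75 ± 0.41 for Nr4a1 (limma adjusted p = 0.269) and -0.08 ± 0.29 for Dusp1 (limma adjusted p = 0.925). There 9 of the 10 members were lower under DRF, with a median of -0.47 beside -0.0072 over all genes, while at ZT0 9 of the 10 were higher. Without NRF ZT24 replicate 4, the library with the high liver sum, 8 were lower at ZT24 with a median of -0.30, and no member was called beside 7.99% of all genes (limma).

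At the start of the dark phase the differences concerned other members. At ZT12, Jun was higher under DRF by 0.63 ± 0.20 (limma adjusted p = 0.0230, beside 16.1% of all genes called and 8.76% called higher), with 42.8, 80.6, 59.3 and 78.2 CPM and 1 DRF mouse inside the NRF range. At ZT16 it was lower under DRF by -0.61 ± 0.20 (limma adjusted p = 0.0383), with 37.6, 67.3, 52.1 and 54.1 CPM, and again 1 DRF mouse overlapped. Jun thus changed the sign of its regimen difference within 4 h. Nr4a2 at ZT16 had 3.86, 5.16, 4.16 and 3.35 CPM under DRF and 6.82, 5.25, 7.55 and 6.21 CPM under NRF, with no overlap and a difference of -0.54 ± 0.17 (limma adjusted p = 0.0311). Ier2 at ZT16 was lower under DRF by -0.55 ± 0.18 (limma adjusted p = 0.0451), and its NRF mice had 20.5, 20.4, 15.4 and 16.9 CPM, all above the DRF mice given before. These were 3 of 10 members at ZT16, beside 9.97% of all genes called and 4.97% called lower. All 10 members had a lower mean under DRF at that hour, from -0.61 to -0.03, with a median of -0.48 beside 0 over all genes. Over the 11 alternatives, the call for Jun at ZT12 was kept in 9, and at ZT16 the calls for Nr4a2, Jun and Ier2 were kept in 8, 7 and 6. Marker sums of 7 of the 15 lists also separated the regimens without overlap at ZT12. Under DRF, adipocyte markers summed to 19538 to 22672 CPM (24537 to 31051 CPM under NRF), adipose progenitor markers to 1301 to 1587 CPM (1683 to 2220 CPM) and the glucocorticoid response to 254 to 339 CPM (478 to 545 CPM), all lower. The sums of endothelium (767 to 816 CPM, against 696 to 717 CPM) and of the heat shock response (1636 to 2751 CPM, against 865 to 1170 CPM) were higher under DRF, as were those of liver (25.1 to 41.5 CPM, against 13.6 to 22.0 CPM) and pancreas (21.3 to 32.8 CPM, against 7.65 to 12.0 CPM). Over the 56 libraries, the pancreas sum was nearly all Cela1 (median 18.6 CPM), with Cpa1 and Ctrb1 at most 0.112 and 0.174 CPM. The liver sum was mostly Alb (median 29.7 CPM), beside medians of 1.77 CPM for Serpina1a, 0.117 for Apoa1 and 0 for Ttr. Hspa8 (median 1103 CPM) was the largest part of the heat shock sum. At ZT16, adipose progenitor markers were lower under DRF (1543 to 1797 CPM, against 1935 to 2501 CPM) and pancreas markers higher (19.8 to 29.9 CPM, against 5.47 to 12.0 CPM), and the other 13 lists overlapped. Their part in the results was not tested.

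**Figure D2:**
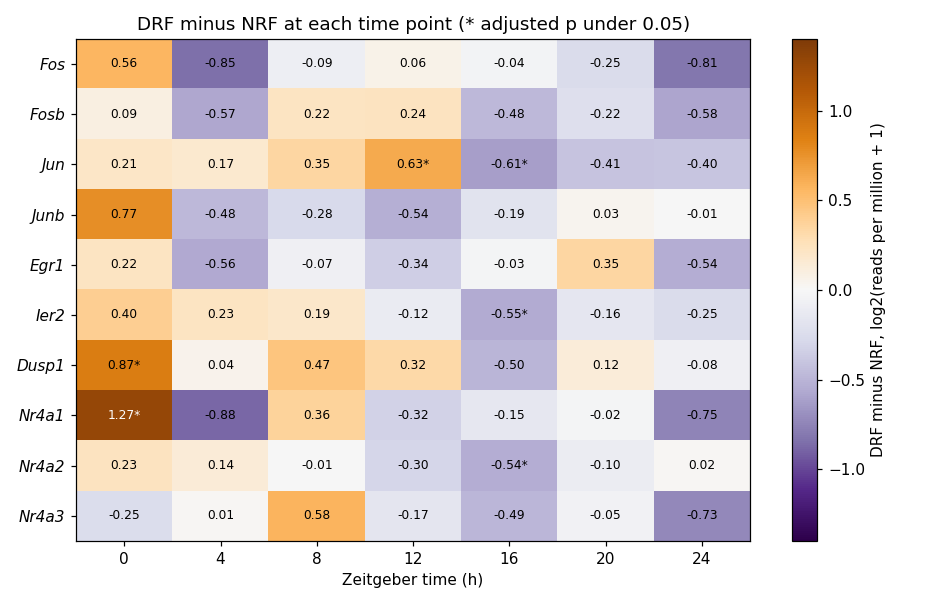
DRF minus NRF of each member at each zeitgeber time, as a difference of group means in log2(CPM + 1) (4 mice against 4), with an asterisk where the limma adjusted p was under 0.05. The 6 calls are Nr4a1 and Dusp1 at ZT0, Jun at ZT12, and Jun, Ier2 and Nr4a2 at ZT16.

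Groups were then compared at the same time from the start of the 12 h with food. In 5 of the 6 comparisons no member was called. The shares of all genes called were 12.6% for DRF ZT4 against NRF ZT16, 1.05% for DRF ZT8 against NRF ZT20, 3.10% for DRF ZT12 against NRF ZT0 and ZT24, 9.69% for DRF ZT20 against NRF ZT8, and 5.51% for DRF ZT0 and ZT24 against NRF ZT12. In these 5, unadjusted p was under 0.05 for 1, 0, 2, 1 and 1 members, and for 26.3%, 13.5%, 15.9%, 22.9% and 17.1% of all genes. In the remaining one, 4 h into the 12 h without food, DRF ZT16 lay below NRF ZT4 for Ier2 (-0.65 ± 0.18, limma adjusted p = 0.0170) and Junb (-0.87 ± 0.29, limma adjusted p = 0.0437), beside 10.4% of all genes called and 5.66% called lower. Nr4a1 differed by -1.18 ± 0.41 (limma adjusted p = 0.0552). The calls were kept in 9 of 11 alternatives for Ier2 and 6 for Junb. All 10 members were lower at DRF ZT16 than at NRF ZT4, with a median of -0.66 beside 0 over all genes. Marker sums also separated these groups without overlap. Lymphocyte markers summed to 76.6 to 94.7 CPM at DRF ZT16 and 165 to 222 CPM at NRF ZT4, and adipose progenitor markers to 1543 to 1797 and 1802 to 2977 CPM. The heat shock response summed to 2346 to 2719 and 983 to 1400 CPM, and the glucocorticoid response to 303 to 734 and 120 to 196 CPM. Their part in the result was not tested. NRF ZT4 held the highest group mean of Fos (14.7 ± 8.65 CPM, SD, n = 4), Fosb (4.75 ± 2.94 CPM) and Egr1 on the log2 scale.

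The same hour of the day was sampled at both ends of the series, and these ends did not match under DRF. This comparison was chosen after the values were seen. Between DRF ZT0 and DRF ZT24, 13 of 25936 genes were called (0.0501%), all lower at ZT24, and 2 of them were members, Nr4a1 and Ier2. Nr4a1 had 4.97, 4.75, 2.71 and 3.87 CPM at DRF ZT24, against the 10.4 to 58.7 CPM at DRF ZT0 given above, with no overlap and a mean 8.20 times higher at ZT0. The difference was -2.52 ± 0.41 (limma adjusted p = 0.0017). Ier2 had 13.7, 12.9, 13.4 and 14.3 CPM at ZT24 and 18.0, 23.3, 41.1 and 29.4 CPM at ZT0, again without overlap, a difference of -0.93 ± 0.18 (limma adjusted p = 0.0331).

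The other 8 members were not called, and their differences ran from -1.62 ± 0.50 for Fos to -0.18 ± 0.17 for Nr4a2. All 10 were lower at DRF ZT24, 8 of them with an unadjusted p under 0.05, as 10.2% of all genes had, and 51.9% of all genes were lower. For 7 members (Fos, Fosb, Jun, Junb, Ier2, Dusp1 and Nr4a1) every ZT0 mouse lay above every ZT24 mouse, which was so for 1.71% of all genes. Fos had 7.14, 7.56, 12.7 and 18.7 CPM at ZT0 and 3.59, 3.02, 2.41 and 2.36 CPM at ZT24. Dusp1 fell short of the threshold at -1.24 ± 0.29 (limma adjusted p = 0.0775). Junb differed by -1.06 ± 0.29, and by -0.60 without DRF ZT0 replicate 4. DRF ZT24 was the group with the lowest mean for 7 of the members, Nr4a1 and Fos among them.

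Of the 11 other called genes, 4 were on the list of other early response genes, namely Ier3 (-2.14), Btg2 (-0.93), Plk3 (-0.92) and Csrnp1 (-0.81), and 1 was Egr3 (-2.01), a relative of Egr1. Outside all lists, and named after their values were seen, were Apold1 (-1.81), Cpne7 (-0.97), Tob2 (-0.89), Midn (-0.80), Epha2 (-0.50) and Gm7860 (-0.19), all with a limma adjusted p from 0.0015 to 0.0335. Ier3 was the 1 gene of the 13 whose groups overlapped. Without DRF ZT0 replicate 4, 6 genes were called, of which 5 were among the 13. Apold1 is itself known as an early response gene of endothelium, and Tob2 and Btg2 belong to one family of antiproliferative proteins.

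Under NRF, 40 genes were called between ZT24 and ZT0 (0.154%) and 0 members, none with an unadjusted p under 0.05 either (limma). All ZT0 mice lay above all ZT24 mice for 1 member, Dusp1, and for 2.03% of all genes. Nr4a1 had 8.47, 6.81, 5.74 and 8.98 CPM at NRF ZT24. The member differences under NRF ran from -0.50 to 0.03. Here too 9 of the 10 members were lower at ZT24, with a median of -0.28 beside 0.0079 over all genes. NRF ZT24 replicate 4 was the library with 1539 CPM of liver markers (23.1 to 32.0 CPM in the other NRF ZT24 mice). Without it, the member differences ran from -0.75 to -0.01, all 10 lower at ZT24 with a median of -0.43. Then 44 genes were called (0.170%) with 0 members (limma). The difference between the regimens in this change was -2.02 for Nr4a1 (limma adjusted p = 0.167) and was called for 0 members, 4 of which had an unadjusted p under 0.05 (11.3% of all genes), and for 0.0116% of all genes. Without that library it was -1.94 for Nr4a1 (limma adjusted p = 0.231), and 0 members were called. It is therefore not shown that the change was particular to DRF. This comparison shares the DRF ZT0 mice with that of the regimens at ZT0.

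The DRF ZT0 mice differed among themselves. Nr4a1 was called whichever single mouse of the 2 groups was left out, with a difference of -2.97 to -2.17 (limma adjusted p = 3.85e-05 to 0.0258). Ier2 was not called without DRF ZT0 replicate 3 or 4 or DRF ZT24 replicate 1, 2 or 3 (limma adjusted p = 0.0672 to 0.180). Over the 10 processing alternatives run for this comparison, the call for Ier2 was kept in 5 (limma adjusted p up to 0.326) and that for Nr4a1 in 8. Over all genes, the number called ranged from 5 without DRF ZT24 replicate 1 to 104 without DRF ZT0 replicate 1, the DRF ZT0 mouse with the lowest Nr4a1. With replicate 2 or 4 of every group left out, Nr4a1 was not called (limma adjusted p = 0.0676 and 0.123). Marker sums in the 2 groups overlapped for adipocytes (16681 to 34660 CPM at ZT0, 28976 to 36688 CPM at ZT24), macrophages (767 to 1185 and 760 to 1205 CPM) and endothelium (470 to 1001 and 613 to 949 CPM). Those of the heat shock response (812 to 1306 and 918 to 1263 CPM) and of the glucocorticoid response (284 to 407 and 237 to 352 CPM) overlapped too. Among the glucocorticoid genes, Sgk1 had 53.9 to 65.3 CPM at ZT0 and 34.6 to 47.2 CPM at ZT24. All its ZT0 mice lay above all ZT24 mice, as for 1.71% of all genes, while Per1, Fkbp5, Tsc22d3 and Zbtb16 overlapped. No gene of the 15 marker lists was called between these groups, beside 0.0501% of all genes. At so low a share, this count does not set the marker genes apart from other genes. The uterus and oviduct sum was high in DRF ZT0 replicate 4 alone. Without that mouse the Nr4a1 difference was -2.32 (limma adjusted p = 0.0258). The part of the marker genes in these differences was not tested.

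**Figure D3:**
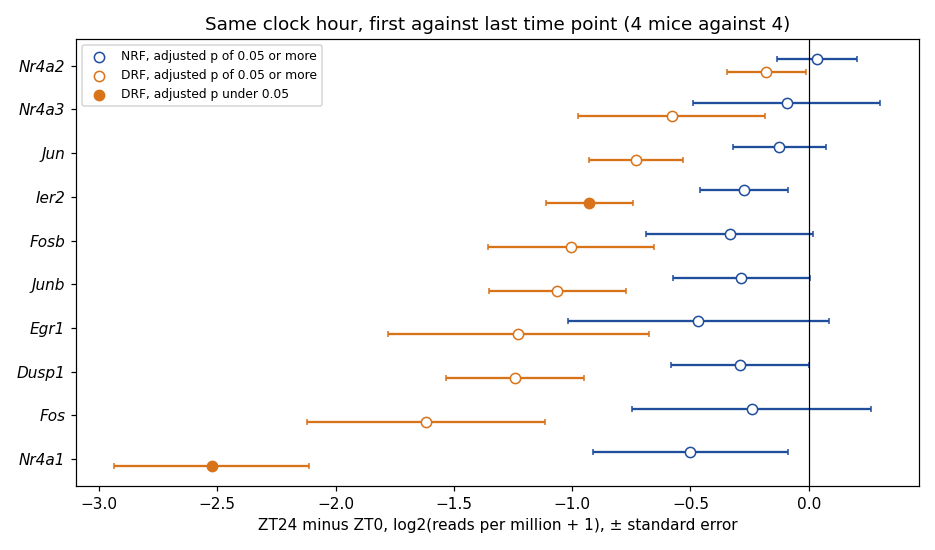
Difference between ZT24 and ZT0 of each member in log2(CPM + 1), with its standard error, under NRF (blue) and DRF (orange), 4 mice against 4. Filled points have a limma adjusted p under 0.05. All 10 DRF points lie below 0, down to -2.52 for Nr4a1, while the NRF points lie between -0.50 and 0.03.

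The members varied more between mice of one group than most genes did. The SD within groups, pooled over the 14 groups, was 0.81 on the log2 scale for Egr1, 0.74 for Fos, 0.60 for Nr4a1, 0.57 for Nr4a3, 0.51 for Fosb, 0.43 for Dusp1 and 0.42 for Junb. These 7 lay above the 90th percentile (0.37) of the 14302 genes with a mean CPM of at least 1, whose median was 0.19. Jun (0.29), Ier2 (0.27) and Nr4a2 (0.24) lay between both. The SD depends on level, and among genes within 1.5-fold of its own mean CPM, Nr4a2 exceeded 51.6%, Ier2 84.9%, Fosb 89.96% and Jun 91.6%. The other 6 members exceeded 93.8% to 99.6%. For 7 members, a smaller share of the variance lay between groups than for the median gene (49.96%), with 24.9% for Egr1 and 26.8% for Nr4a3. Nr4a1 (53.4%), Jun (54.4%) and Ier2 (56.4%) were above it.

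The widest group for the members was NRF ZT12, with a median SD of 0.63 over the members, and the next was DRF ZT0 with 0.55. The median SD of expressed genes was 0.14 at NRF ZT12 and 0.22 at DRF ZT0. DRF ZT24, the same hour as DRF ZT0, had the lowest median SD over the members of the 14 groups, 0.22, beside 0.15 for expressed genes. At NRF ZT12, Egr1 (chr18:34859823-34864984, plus strand) had 7.14, 61.9, 63.1 and 13.9 CPM. Fos (chr12:85473890-85477273, plus strand) had 1.14, 19.1, 19.1 and 2.41 CPM in the same 4 mice. Replicates 2 and 3 were high and replicates 1 and 4 low for both. In the third widest group, DRF ZT20, different mice stood out. Replicate 2 had 111 CPM of Egr1 beside 22.9, 19.5 and 8.83 CPM. Replicate 3 had 20.7 CPM of Nr4a3 (chr4:48045153-48086447, plus strand) beside 1.86, 2.10 and 1.46 CPM, as well as the highest Nr4a1 (26.2 CPM), Fosb and Nr4a2 of that group.

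**Figure D4:**
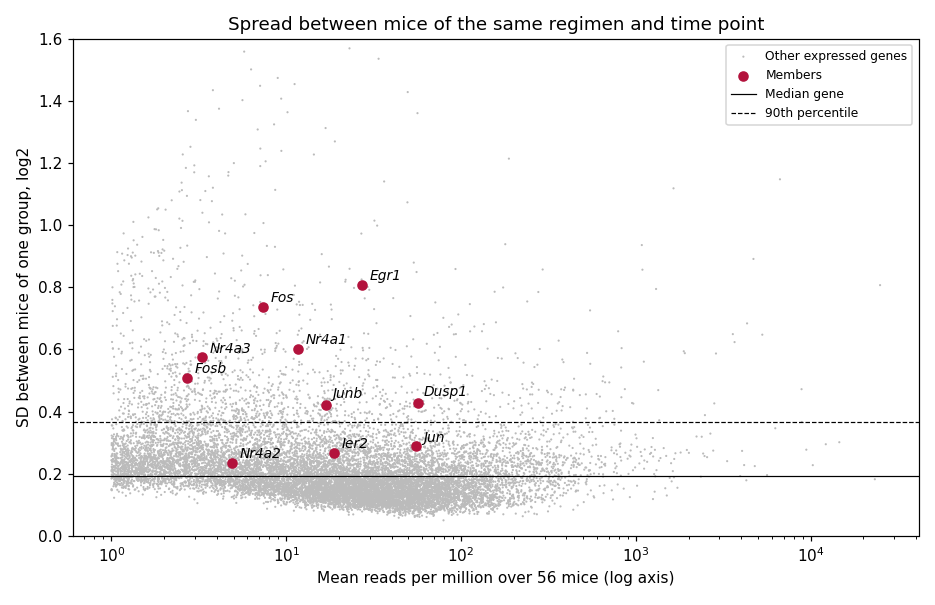
SD between mice of one group on the log2 scale against mean CPM (log axis) for 14302 genes, with the members in red. The solid line is the median gene (0.19) and the dashed line the 90th percentile (0.37). 7 members lie above the dashed line, and 8 other genes lie above the axis limit of 1.6 and are not shown.

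Whether the members rose and fell together from mouse to mouse was tested on the deviations from the group means. Of 45 pairs, 40 had a positive Pearson's r, with a median of 0.31, and 17 passed a two-sided permutation test (100000 shuffles within groups, Benjamini-Hochberg adjusted over the 45 pairs). By Spearman's rho, 17 passed as well. The strongest pair was Fos and Egr1 (r = 0.73, rho = 0.74, permutation adjusted p = 0.000225 for r), whose unadjusted p of 1e-05 is the smallest that the shuffles can give. Next were Junb and Ier2 (r = 0.67, rho = 0.72), Fos and Junb (r = 0.67, rho = 0.72), Fosb and Nr4a1 (r = 0.66, rho = 0.55) and Fos and Fosb (r = 0.63, rho = 0.56). Without the 2 mice farthest from the median of the first gene, r for these 5 pairs was 0.67, 0.70, 0.74, 0.59 and 0.52. Fos and Egr1, encoding proteins of unlike families, thus had a higher r than Fos with its AP-1 partner Jun (r = 0.35, rho = 0.27, permutation adjusted p = 0.0741 for r), a difference that was not itself tested.

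Members outside this group were Nr4a2, which passed with no other member (r from -0.07 to 0.31), Nr4a3, which passed with Nr4a1 alone (r = 0.52, rho = 0.42), and Jun, which passed with Ier2 alone (r = 0.46, rho = 0.53). For Nr4a1 and Nr4a3, r was 0.34 without the 2 farthest mice. Of the 3 receptors, Nr4a1 was thus the one that passed with Fos (r = 0.60, rho = 0.59) and Egr1 (r = 0.59, rho = 0.64). Within regimens, the median r over the pairs was 0.46 for NRF and 0.24 for DRF. For Fos and Fosb it was 0.79 and 0.19, and for Fos and Egr1 0.90 and 0.50, and the difference between regimens was not tested. Without replicate 1 of every group, 6 pairs passed, and without replicate 4, 11. Replicate 1 had the lowest Fos in 10 of the 14 groups, the lowest Jun and Dusp1 in 8 each, the lowest mesothelial sum in 10 and the highest smooth muscle sum in 11. The shuffles within groups treat mice of a group as exchangeable and take no account of this. With the replicate number as a block, 15 pairs passed. All members of a mouse share 1 library and its depth. Scaling the libraries by the median of ratios gave 17 pairs that passed.

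**Figure D5:**
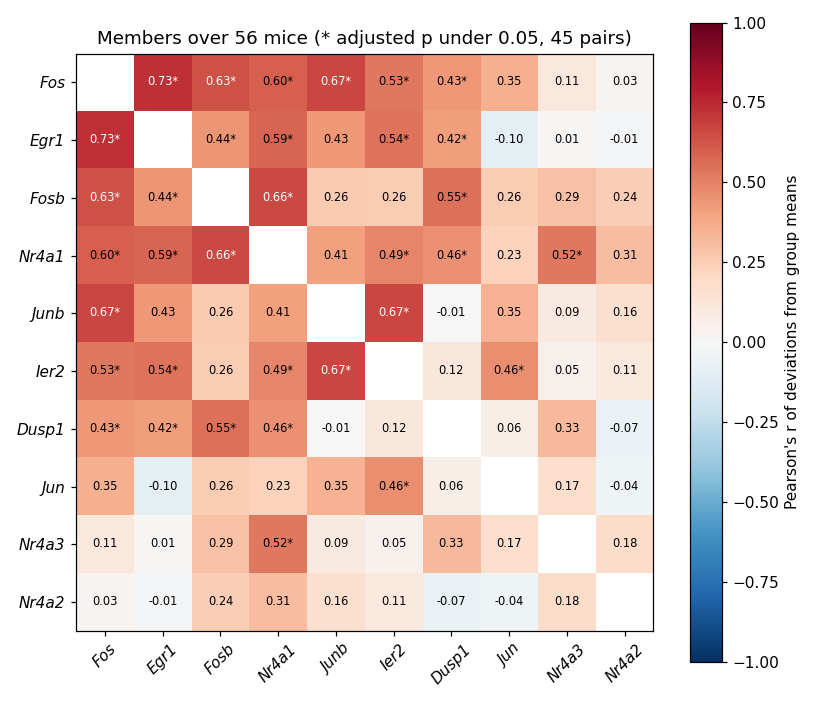
Pearson's r between members over 56 mice, computed on deviations of log2(CPM + 1) from the group means, with an asterisk where the permutation adjusted p over 45 pairs was under 0.05. Fos has an asterisk with Egr1, Fosb, Nr4a1, Junb, Ier2 and Dusp1, while Junb and Dusp1 (-0.01) and Ier2 and Dusp1 (0.12) do not, and the row of Nr4a2 has none.

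Genes most like 4 of the members were sought among those with a mean CPM of at least 1, by Pearson's r, as a description. Over the deviations of the 56 mice, the 5 closest to Fos were Ccn1 (0.74), Csrnp1 (0.64), Btg2 (0.62), Sipa1l1 (0.54) and Zfp36 (0.53). Egr1 was closest to Ccn1 (0.72), Btg2 (0.53), Zfp36 (0.51), Egr3 (0.51) and Egr2 (0.50), and Nr4a1 to Egr3 (0.79), Arc (0.66), Ccn1 (0.63), Apold1 (0.60) and Csrnp1 (0.58). Of these, Ccn1, Csrnp1, Btg2, Zfp36 and Arc are on the list of other early response genes. Junb was closest to Irf7 (0.72), Ly6e (0.71), H3f3b (0.68), Tbrg1 (0.68) and Oas1a (0.68), of which Irf7, Ly6e and Oas1a are known interferon-stimulated genes. The search included DRF ZT0 replicate 4, which stood apart and had 69.1 CPM of Junb, and was not repeated without it. How far these values rest on that library was not tested. Over the 14 group means, Nr4a1 was closest to Egr3 (0.92), Gmds, Ncoa7, Plscr1 and Ccdc88b (0.83 to 0.85). Junb was closest to Csrnp1 (0.94), Pafah1b3, Plscr1, Zfp777 and Sppl3 (0.90 to 0.92). Fos was closest to Ccl8, Isg15, Ly6a, Ccn1 and Dnaaf3 (0.76 to 0.79), and Egr1 to Pigx, Ube2l6, Lsm5, Yipf2 and Gm10177 (0.75 to 0.81).

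The other genes of the pathway were given as lists, beginning with partners and relatives of the members. Of 12 other AP-1 and bZIP partners, 4 differed in mean level (1 higher and 3 lower under DRF, beside 22.2% of all genes), with a list median of -0.09. Batf3 (-0.26 ± 0.07, limma adjusted p = 0.0035) and Jdp2 (-0.26 ± 0.06, limma adjusted p = 0.0018) were lower. 7 varied with time under NRF and 3 under DRF (27.6% and 28.2% of all genes), and 5 differed in rhythm (36.0% of all genes), so that the last 2 counts lay near the shares of all genes. Fosl2, a further Fos relative, had a range of 1.59 over the group means and a rhythm that differed between regimens (limma adjusted p = 1.67e-10). Maff, a small Maf protein, had a range of 1.73 (limma adjusted p of the rhythm difference = 1.33e-07), and Atf3, a stress-induced factor, one of 1.49 (0.198 in the same limma test).

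Of the 5 EGR family and NAB corepressor genes, 0 differed in mean level (limma), 2 varied with time under NRF and 3 under DRF, beside the same shares of all genes. Egr3 had a range of 2.01, between DRF ZT0 and DRF ZT24, and Egr2 one of 1.197, between NRF ZT4 and DRF ZT24. Nab2, a corepressor of EGR proteins, had a range of 0.71. The extremes of Egr3 and Egr2 are the groups that were extreme for Nr4a1 and for Fos and Egr1.

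Of 40 other early response genes, 10 differed in mean level (4 higher and 6 lower under DRF), near the 22.2% of all genes. 20 varied with time under NRF and 28 under DRF, beside the 27.6% and 28.2% of all genes given above, and 21 differed in rhythm (36.0% of all genes). At ZT0, 13 were called between regimens, 12 of them higher under DRF, with a list median of 0.33 beside 0.0094 over all genes and with 10.5% of all genes called. At ZT24, the same hour, 1 was called, beside 11.3% of all genes, and the list median was -0.05 beside -0.0072. At ZT12, 11 were called (2 higher and 9 lower under DRF, beside 16.1% of all genes), with a list median of -0.10 beside 1.36e-05. At ZT16, 6 were called, all lower (beside 9.97% of all genes), with a list median of -0.29 beside 0. Per1, a clock gene that is also an early response gene, had the widest range of the list (2.84, highest at NRF ZT12), followed by Gadd45a, a DNA damage response gene (2.55, highest at DRF ZT4), and Ier3 (2.14, highest at DRF ZT0). Ccn2, a matricellular protein (0.36 ± 0.09, limma adjusted p = 0.0022), and Per1 (0.31 ± 0.10, limma adjusted p = 0.0177) were higher in mean level under DRF. Id3, an inhibitor of bHLH factors, was lower (-0.30 ± 0.07, limma adjusted p = 0.0012).

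Signalling genes upstream of the members followed. Of 15 MAP kinase feedback inhibitors, 10 varied with time under NRF and 9 under DRF (27.6% and 28.2% of all genes), and 13 differed in rhythm (36.0% of all genes). In mean level 2 differed, both lower, a smaller share than the 22.2% of all genes. Spry4 (range 2.75) and Dusp10 (range 2.44) were highest at DRF ZT4, and Dusp4 (range 1.89) was too. Of 15 MAP kinases, 5 were higher in mean level under DRF and 0 lower, beside 11.8% of all genes called higher and 10.5% called lower. Among the 5 were Mapk3, which codes for ERK1 (0.33 ± 0.03, limma adjusted p = 4.80e-10), Map2k4 (0.17 ± 0.03) and Map2k1 (0.14 ± 0.03). All 6 genes of the list of SRF and ternary complex factors varied with time under NRF and 4 under DRF, and 5 differed in rhythm, beside the same shares of all genes, with ranges of 0.70 for Srf and Elk1.

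Of 20 genes of the CREB and cAMP pathway, 10 varied with time under each regimen (27.6% and 28.2% of all genes) and 11 differed in rhythm (36.0%). In mean level 5 differed (3 higher and 2 lower under DRF), near the 22.2% of all genes. Prkaca, the catalytic subunit of protein kinase A, was higher by 0.46 ± 0.07 (limma adjusted p = 1.17e-06). Pde4d (0.32 ± 0.07, limma adjusted p = 0.0011) and Pde3b (0.24 ± 0.07, limma adjusted p = 0.0079), which break down cyclic AMP, were higher as well. Prkar2b, a regulatory subunit, had the widest range of the list (1.67, highest at NRF ZT12). Between DRF ZT24 and DRF ZT0, 0 genes of the AP-1, feedback inhibitor, MAP kinase, SRF and CREB lists were called by limma, beside 0.0501% of all genes. At so low a share, this count does not set these lists apart.

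Markers of other cells and states were read beside the member differences. In mean level between regimens, 4 of 6 macrophage, 4 of 5 adipose progenitor, 3 of 5 mesothelial and all 5 red cell markers and 3 of 5 genes of the glucocorticoid response were called, beside 22.2% of all genes. So were 2 of 8 adipocyte, 2 of 5 neutrophil, 1 of 7 lymphocyte and 1 of 5 smooth muscle markers, and 1 of the 3 pancreas markers measured. In the other 5 lists, endothelium and the heat shock response among them, 0 were called. At ZT0, where Nr4a1 and Dusp1 were higher under DRF, all 5 genes of the glucocorticoid response (Per1, also an early response gene, among them), 5 of the 8 of the heat shock response and 4 of the 5 red cell markers were called, beside 10.5% of all genes. The glucocorticoid sum was higher under DRF (284 to 407 CPM, against 117 to 192 CPM under NRF) and the heat shock sum lower (812 to 1306 CPM, against 1706 to 3100 CPM). The red cell sum was higher under DRF, with 282 to 742 CPM against 192 to 255 CPM. These 3 sums did not overlap between the regimens. By medians over all libraries, Hspa8 (1103 CPM) and Hsp90aa1 (300 CPM) made up most of the heat shock sum, beside 5.01 CPM for Hspa1a and 15.5 CPM for Hspa1b. At DRF ZT0, Hspa1b had 8.79 to 66.0 CPM, the upper value being its highest of all libraries, so the lower sum does not describe every gene of that list. Dusp1 is also known as a glucocorticoid-induced gene. The highest group mean of the glucocorticoid sum was 518 CPM, at NRF ZT12. The part of these genes in the member differences was not tested.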

How the data were processed

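RNA-seq of VAT was analysed in 56 libraries, each of 1 mouse, in 14 groups of 4. Per the submitters' processing notes, reads were aligned with HISAT2 2.0.5 to mm10 and counted with featureCounts 1.5.0-p3, and the kit does not mark strand, so reads of a gene and of an antisense partner cannot be told apart. The authors deposited values named TPM. From the values, each was found to be log2(CPM + 1) divided by exon length and scaled per library, and it was therefore treated as a score. Reads were recovered from these steps: 100% of 1261974 tested values (up to 10000 reads) were whole within 0.02. Exon length came from the annotation for 25029 genes and from the values for 898, while 9 genes were too abundant to test and 3 were not resolved. limma 3.58.1 (R 4.3.3) was fitted to log2(CPM + 1) of 25936 genes with 1 mean per group, and p-values were adjusted by Benjamini-Hochberg over all genes at 0.05. A call is an adjusted p under 0.05. No count model was run on the recovered reads. Rhythms were tested on the deposited scores after MetaCycle, with an exact JTK-type test and Lomb-Scargle joined by Fisher's method, although both use the same data. Pair correlations used 100000 shuffles (Python 3.11.15, numpy 2.4.6, scipy 1.17.1).

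Members and lists were chosen with earlier results of these data known. Named list genes were, per list, the 3 with the largest mean-level difference and the 3 with the widest range of group means, at a mean CPM of at least 1, and 5 genes most like each of 4 members. The comparison of DRF ZT24 with DRF ZT0 and its alternatives and the fits without NRF ZT24 replicate 4 were added after the values were seen. 1 gene that this rule names is not reported here. Alternatives were a pseudocount of 0.1 CPM, median-of-ratios size factors, a filter on mean CPM of 1, log2(deposited value + 1), a replicate block, and leaving out ZT24, the 2 libraries that stood apart, or each replicate. No 2 libraries of a group were duplicates (84 pairs, chi-square per degree of freedom 19.0 to 412). The limma and rhythm tests were checked on simulated data in which genes were independent and shared a common spread setting. The spread and correlation of the members were not simulated. Coordinates are GRCm38 (mm10).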

Additional observations from a re-analysis of the deposited data

Results flagged for a closer look

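The 10 members were each examined in the 14 groups of 4 mice. In 10 of these 140 combinations of a gene and a group, 1 mouse lay far from the other 3 by Dixon's criterion, and chance flags about 1 in 20. The combinations share mice, and the 10 fell in 5 DRF groups (8 combinations) and 1 NRF group (2). In 6 the mouse was the highest and in 4 the lowest. For the NR4A receptors, Nr4a3 was 20.7 CPM in DRF ZT20 replicate 3 beside 1.46 to 2.10 CPM, 6.20 CPM in DRF ZT12 replicate 4 beside 2.54 to 2.74 CPM, and 2.52 CPM in DRF ZT24 replicate 2 beside 0.867 to 1.04 CPM. Nr4a1 was 10.3 CPM in DRF ZT16 replicate 3 beside 5.83 to 6.11 CPM.

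For Fosb, DRF ZT20 replicate 3 had 5.06 CPM beside at most 1.598 CPM, in the mouse that also had the high Nr4a3, and DRF ZT8 replicate 1 had 1.79 CPM beside 2.61 to 2.68 CPM. That DRF ZT8 mouse had 446 CPM of the markers listed for uterus and oviduct and the lowest adipocyte sum. Their part was not tested. Egr1 was low in it too, at 15.1 CPM beside 26.3 to 28.1 CPM, and in DRF ZT16 replicate 4, at 11.3 CPM beside 16.7 to 17.8 CPM. At NRF ZT24, Jun was 35.2 CPM in replicate 1 beside 56.4 to 61.4 CPM, and Junb was 19.1 CPM in replicate 4 beside 9.59 to 10.5 CPM. In that replicate 4, the liver markers summed to 1539 CPM beside 23.1 to 32.0 CPM in the other 3 mice, and Fos was 14.1 CPM beside 3.08 to 5.29 CPM. The part of the liver signal was not tested.

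The 24-h rhythm differed between regimens, by a limma test of the difference itself, for Nr4a2 (fitted shift of 7.76 h) and Jun (fitted shift of -10.4 h). That test covers amplitude and peak time together and not the shift alone. As given above, the cosine of Jun under DRF and that of Nr4a2 under NRF did not pass on their own.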

How the results depend on the processing

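Alternatives other than leaving out replicates changed counts of members called as follows. Without the ZT24 libraries, the time effect gave 1 member under NRF (2 with all) and 3 under DRF (5), single time points gave 3 calls (6), feeding-aligned comparisons 1 (2), DRF rhythms 2 (1) and the rhythm difference 3 (2, with Ier2 added). With the filter on mean CPM, the rhythm difference gave 3 and aligned comparisons 3. On log2(deposited value + 1), time under DRF gave 4 (without Dusp1), single time points gave 3 calls and DRF ZT24 against ZT0 gave 1 (2). Without DRF ZT8 replicate 1 and DRF ZT0 replicate 4, time under DRF gave 4 (without Junb), aligned comparisons 4 calls, DRF rhythms 0, and DRF ZT24 against ZT0 1 member. Tested on recovered log2(CPM + 1), rhythms gave 1 member under NRF (2) and 2 under DRF, and a limma cosine gave 2 under DRF. Jun's mean-level difference, -0.0107, was 0.0540 without ZT24, and that of Nr4a1, -0.0704, was 0.0430. None of these was called. The cause was not tested.

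Leaving out libraries (1 replicate number of all groups, or the 2 that stood apart), members called ranged from 0 to 1 for mean level, 0 to 2 for time under NRF, 2 to 4 for time under DRF, 0 to 3 for the rhythm difference, 1 to 6 at single time points, 0 to 4 in aligned comparisons, 0 to 2 for NRF rhythms and 0 to 1 for DRF rhythms. Pairs of members that passed ranged from 6 to 16, DRF ZT24 against ZT0 gave 0 to 5 members (single mice left out included), and the mean-level difference of Jun ran from -0.0483 to 0.0364. With a replicate block, DRF rhythms gave 2 members, aligned comparisons 3 calls, 15 pairs passed, and DRF ZT24 against ZT0 gave 3 members. The replicate numbers did not meet the criterion for pairing, although replicate 1 had the lowest Fos in 10 of 14 groups. Deviations of same-numbered mice had a median correlation of 0.033, and 16 of 56 libraries were closest to their own number.

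Members had 15 to 4358 reads per library, the fewest for Fosb, and each group held 4 mice. Leaving out NRF ZT24 replicate 4, chosen after seeing the data, changed no call of a member in the limma comparisons or cosine fits.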
